A study of Mus musculus with 9 samples.

Results

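The genes described here are 10 that build the cytoskeleton of young neurons: 4 subunits of neurofilaments (Nefl, Nefm, Nefh and Ina) and 6 genes of microtubules and growing neurites (Dcx, Tubb3, Stmn2, Map2, Mapt and Gap43). They were chosen by name, without a threshold on any value. All 10 were measured, out of 19938 genes with 1 symbol on the array, and Ina was the 1 gene of them with a second probe set. The values are log2 probe set values, so a difference of 1 is a doubling, and a level can be compared between arrays for 1 gene but not between genes.

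RNA came from uncultured ventricular zone cells of newborn C57BL/Ka mice, the layer that lines the brain ventricles and holds the radial glia, and was hybridized to 9 Affymetrix Mouse Gene ST 1.0 arrays. The genotypes were Prdm16LacZ/LacZ (KO, no wild-type allele), Prdm16LacZ/+ (HET, 1 wild-type allele) and Prdm16+/+ (WT), with 3 arrays each. Prdm16 encodes a zinc finger transcription regulator, and the comparisons ask which transcripts differ when 1 or both alleles carry the LacZ insertion. Nothing in the labels says that arrays of a genotype came from separate animals or litters, so each p-value measures only how these arrays varied, and that variation may be technical. RNA was amplified before labelling, and the labels give no age finer than newborn.

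The arrays were alike in scale, with upper quartiles between 7.26 and 7.38 and correlations across probe sets between 0.988 and 0.996. Prdm16 itself lay at 6.09 ± 0.37 in KO, 7.11 ± 0.20 in HET and 7.47 ± 0.21 in WT (SD, n = 3 each), and fell by 1.38 on the log2 scale in KO against WT (SE 0.18, adjusted p = 0.010 by limma). The position of its probes relative to the insertion is not known here. Over all genes, 90 differed between KO and WT, 0 between HET and WT and 41 between KO and HET (limma over all 9 arrays, Benjamini-Hochberg adjusted p under 0.05). The KO arrays and the HET arrays varied more than the WT arrays, with a median SD per gene of 0.13 in KO, 0.12 in HET and 0.077 in WT. Array weights estimated by limma were lowest for KO replicate 2 (0.36) and HET replicate 1 (0.55). HET replicate 1 lay below both other HET arrays in 8 of the 10 genes, so the main HET differences are also given without it. In those 8 genes leaving it out raises the HET mean by construction, so such values are no independent support. Gene values without KO replicate 2, of lower weight, are not given in the same way.

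The tissue label was checked against 15 radial glia and neural stem cell genes, of which 10 exceeded the upper quartile on all arrays and 1, Hopx, was under the lower quartile on all of them. Of 28 measured markers of young neurons other than the 10 genes, 16 lay above the upper quartile of every array. The dissected cells thus carried transcripts of progenitors and of neurons. In such bulk RNA, fewer neurons and less transcript per neuron cannot be told apart.

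Neurofilaments are the intermediate filaments of axons. The light (Nefl), medium (Nefm) and heavy (Nefh) subunits and alpha-internexin (Ina) assemble together into 1 filament, and Ina is made early in development while Nefh follows late. Microtubules of newborn neurons hold the neuronal beta-tubulin Tubb3 and are stabilised by doublecortin (Dcx), Map2 in dendrites and tau (Mapt) in axons. Stmn2 binds free tubulin in growth cones, and Gap43 is a membrane protein of the growing axon tip. In the newborn ventricular zone such transcripts are known mainly from neuroblasts and young neurons. Which cells carried them was not measured here.

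None of the 10 genes passed the test over all genes in any of the 3 comparisons (limma with Benjamini-Hochberg). In KO against WT the called share was 0 of 10, where 0.451% of all genes were called, and 1 of the 10, Nefm, had an unadjusted p under 0.05, where 6.15% of all genes had (3.28% upward). The arrays of KO and WT did not overlap in 4 of the 10, namely Nefm, Ina and Mapt (higher in KO) and Stmn2 (lower in KO), where 9.98% of all genes did not overlap (5.63% higher and 4.34% lower in KO). The median log2 difference of the 10 was 0.02, beside 0.01 over all genes, and 6 of 10 lay above 0, beside 52.6% of all genes.

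Nefm, the medium subunit, lay at 7.51, 7.45 and 7.81 in KO, 7.16, 7.41 and 7.33 in HET and 7.16, 7.02 and 7.26 in WT. Every KO array was above every HET and every WT array, while HET and WT overlapped. The mean was 7.59 ± 0.19 in KO, 7.30 ± 0.13 in HET and 7.15 ± 0.12 in WT (SD, n = 3 each). KO lay 1.36-fold above WT, a log2 difference of 0.44 with SE 0.11 and a 95% interval from 0.19 to 0.69, which did not pass over all genes (adjusted p = 0.25 by limma). That adjusted p lay between 0.091 and 0.81 over 18 other settings, and the difference between 0.33 and 0.51. KO against HET gave 0.29 (SE 0.11, adjusted p = 0.74), and HET against WT 0.15 (SE 0.11, adjusted p = 0.99). These were, without HET replicate 1, 0.22 (adjusted p = 0.54) and 0.22 (adjusted p = 0.54).

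Nefl, the light subunit, had its lowest mean in KO. It lay at 7.88, 7.62 and 7.34 in KO, 7.60, 8.39 and 8.71 in HET and 8.06, 7.88 and 7.90 in WT. KO replicate 1 and the lowest WT array were listed at the same value (7.88146), and the other KO arrays lay below all WT arrays. HET replicate 1 lay below all WT arrays, and HET replicates 2 and 3 above them. KO against WT gave -0.33 on the log2 scale (SE 0.24, 95% interval -0.87 to 0.20, adjusted p = 0.97 by limma), and without KO replicate 3 it was -0.19. KO against HET gave -0.62 (SE 0.24, adjusted p = 0.73), and without HET replicate 1 it was -0.94 (adjusted p = 0.051). Over the arrays left out in turn, that difference ranged from -0.94 to -0.38.

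Nefl and Nefm are neighbours on chromosome 14 of the RefSeq gene table (GRCm38.p6), with 0 protein-coding genes between them. The Nefm value minus the Nefl value was -0.38, -0.17 and 0.47 in KO, -0.44, -0.98 and -1.38 in HET and -0.90, -0.87 and -0.64 in WT. All 3 KO arrays were above all 3 HET and all 3 WT arrays. This contrast of the pair was chosen after the values were seen. Its KO mean exceeded the WT mean by 0.78 (exact permutation test, two-sided, p = 0.10, the smallest that 3 against 3 arrays can give), and by 0.53 without KO replicate 3. KO exceeded HET by 0.91 (exact p = 0.10), and HET minus WT was -0.13 (exact p = 0.70). Without HET replicate 1, KO exceeded HET by 1.16 and HET minus WT was -0.38.

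Ina, alpha-internexin, lay at 10.23, 10.13 and 10.04 in KO, 9.79, 10.37 and 10.43 in HET and 9.82, 9.81 and 9.83 in WT. All KO arrays were above all WT arrays, HET replicates 2 and 3 were above all others, and HET replicate 1 was the lowest of the 9. KO against WT gave 0.32 on the log2 scale (SE 0.15, 95% interval -0.01 to 0.64, adjusted p = 0.83 by limma), or 1.25-fold. This SE also pools the spread of the HET arrays. With only the KO and WT arrays the adjusted p by limma was 0.28. HET against WT gave 0.38 (SE 0.15, unadjusted p = 0.027, adjusted p = 0.99), and without HET replicate 1 it was 0.58 (adjusted p = 0.13). Over the arrays left out in turn, the HET difference ranged from 0.26 to 0.58. The second probe set of Ina gave 0.20 for KO against WT and 0.18 for HET against WT, with KO replicate 2 inside the WT range.

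Nefh, the heavy subunit, lay between 5.03 and 5.25 on all 9 arrays, below every array's median, and 3 arrays of KO and HET were listed at the same 5.18. Its means were 5.13 ± 0.09 in KO, 5.18 ± 0.05 in HET and 5.18 ± 0.10 in WT (SD, n = 3 each). The 95% interval of KO against WT ran from -0.23 to 0.13. Detection calls were not used here, so whether values this low exceed background was not tested. The order of the genotypes thus differed between subunits: KO, HET, WT from high to low for Nefm, HET, WT, KO for Nefl, and HET, KO, WT for Ina, with no neighbouring pair of these passing the test.

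**Figure D1:**
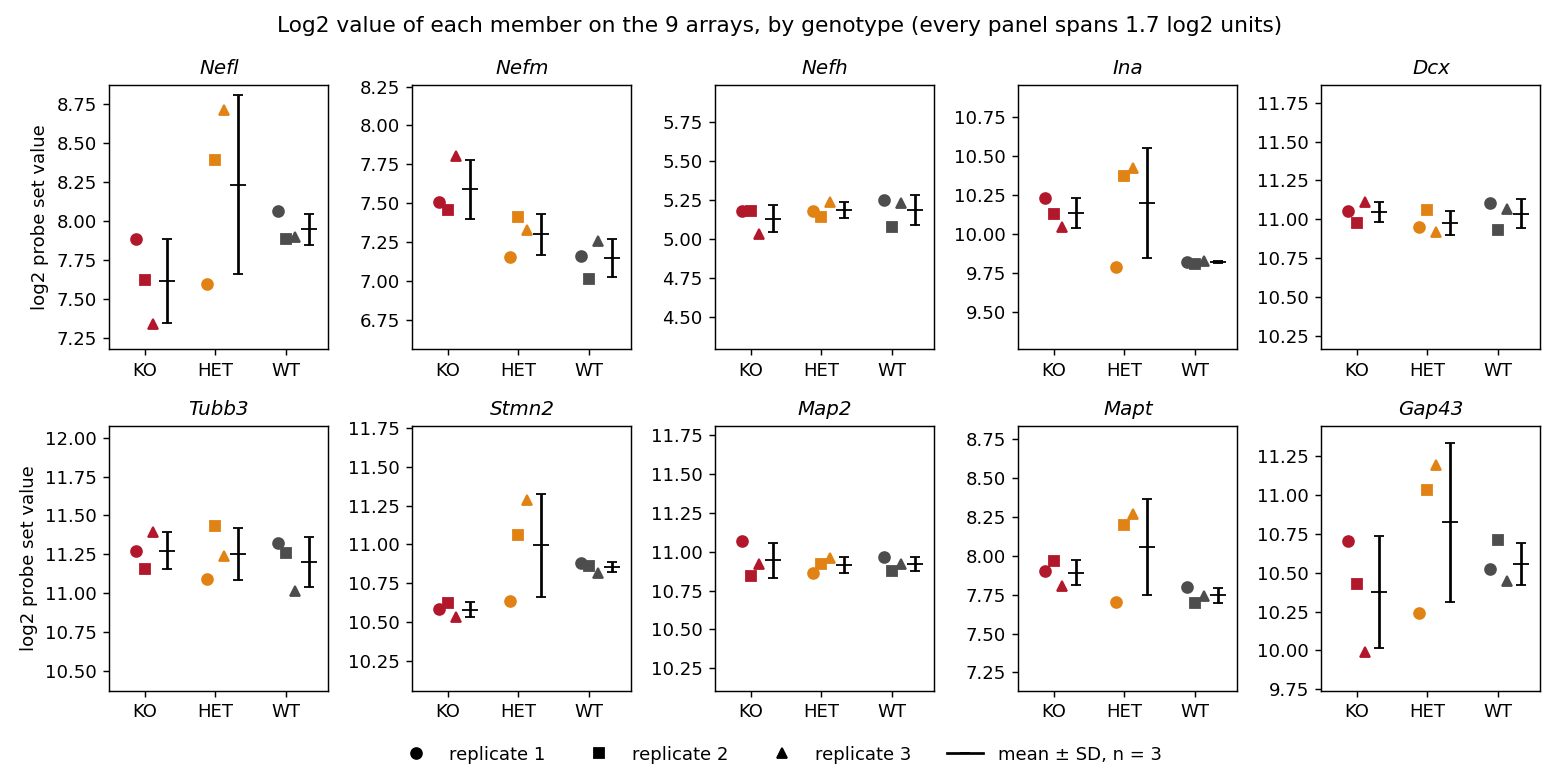
Log2 probe set value (vertical axes) of the 10 genes on the 9 arrays by genotype; symbols are replicates, and the bars at the right of each genotype are the mean ± SD of 3 arrays. Nefm is highest in the 3 KO arrays, Stmn2 is lower in all KO arrays than in all WT arrays, and HET replicates 2 and 3 lie above HET replicate 1 in Nefl, Ina, Stmn2, Mapt and Gap43.

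Stmn2, the tubulin-binding growth cone protein, lay at 10.59, 10.62 and 10.53 in KO, 10.64, 11.06 and 11.29 in HET and 10.88, 10.86 and 10.82 in WT. All KO arrays were below all HET and all WT arrays. The mean was 10.58 ± 0.05 in KO, 10.99 ± 0.33 in HET and 10.86 ± 0.03 in WT (SD, n = 3 each). KO lay at 0.827-fold of WT, a log2 difference of -0.27 with SE 0.14 and a 95% interval from -0.58 to 0.03 (adjusted p = 0.86 by limma). KO against HET gave -0.41 (SE 0.14, unadjusted p = 0.012, adjusted p = 0.59). Without HET replicate 1 that difference was -0.59 and passed the test (adjusted p = 0.040), the 1 call of any of the 10 genes over all comparisons and settings run, and without KO replicate 2 as well it did not (adjusted p = 0.069). HET replicate 1 was the lowest HET array for Stmn2, so leaving it out widens the difference by construction. Over the arrays left out in turn, the KO against HET difference ranged from -0.59 to -0.27.

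Gap43, of the axon tip, lay at 10.70, 10.43 and 9.99 in KO, 10.24, 11.03 and 11.19 in HET and 10.52, 10.71 and 10.44 in WT. KO replicate 1 lay inside the WT range and the other KO arrays below it, while HET replicate 1 lay below and HET replicates 2 and 3 above it. KO against WT gave -0.18 (SE 0.24, 95% interval -0.71 to 0.34), which came to 0.0072 without KO replicate 3, the lowest array. KO against HET gave -0.45 (SE 0.24, adjusted p = 0.83 by limma), and -0.74 without HET replicate 1 (adjusted p = 0.15). Over the arrays left out in turn, that difference ranged from -0.74 to -0.26.

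Mapt, which encodes tau, lay at 7.90, 7.97 and 7.81 in KO, 7.70, 8.19 and 8.27 in HET and 7.80, 7.70 and 7.74 in WT. KO was above WT in all arrays by a narrow margin. The log2 difference was 0.15 for KO against WT (SE 0.13, adjusted p = 0.99 by limma) and 0.31 for HET against WT (SE 0.13, unadjusted p = 0.041, adjusted p = 0.99). Without HET replicate 1 the HET difference was 0.49 (adjusted p = 0.13). Over the arrays left out in turn, it ranged from 0.20 to 0.49.

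Dcx, Tubb3 and Map2 had overlapping arrays in all 3 comparisons. Dcx, the microtubule binder of migrating neuroblasts, had means of 11.05 ± 0.07 in KO, 10.98 ± 0.07 in HET and 11.04 ± 0.09 in WT (SD, n = 3 each). Tubb3 had 11.27 ± 0.12 in KO, 11.25 ± 0.17 in HET and 11.20 ± 0.16 in WT. Map2, of dendrites, had 10.94 ± 0.11 in KO, 10.92 ± 0.05 in HET and 10.92 ± 0.04 in WT. For KO against WT the 95% intervals were -0.17 to 0.19 for Dcx, -0.18 to 0.33 for Tubb3 and -0.15 to 0.20 for Map2.

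**Figure D2:**
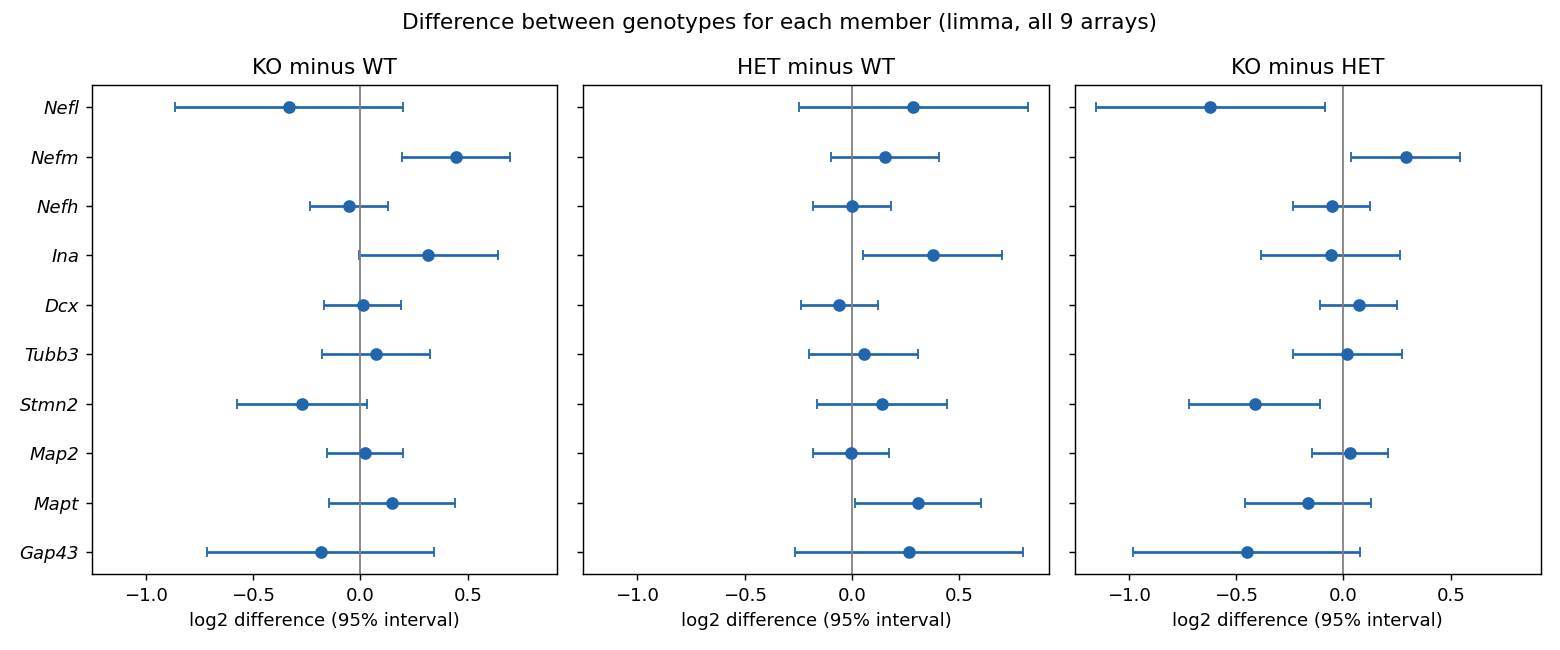
Log2 difference between genotype means of each gene (horizontal axis) with its 95% interval from limma over all 9 arrays. For KO minus WT the interval of Nefm (0.19 to 0.69) is the 1 interval that leaves out 0 before adjustment, and for KO minus HET those of Nefl, Nefm and Stmn2 leave out 0.

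In HET against WT, 0 of the 10 genes passed, as did 0% of all genes, and 2 of 10, Ina and Mapt, had an unadjusted p under 0.05, both upward, beside 4.05% of all genes (2.4% upward). The groups overlapped in all 10, beside 6.85% of all genes that did not overlap, and 8 of 10 differences lay above 0, with a median of 0.15 beside 0.00 over all genes. In KO against HET, 0 of 10 passed beside 0.206% of all genes, and 3 had an unadjusted p under 0.05 (Nefm higher, Nefl and Stmn2 lower) beside 6.16% of all genes (2.87% higher and 3.3% lower). The groups did not overlap in 2 (Nefm higher, Stmn2 lower), beside 6.54% of all genes (3.45% higher and 3.09% lower). These comparisons share arrays with KO against WT, so they are not independent of it.

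The HET values rested on which arrays were read. HET replicate 1 lay below all WT arrays in 5 of the 10 genes, within the WT range in 5 and above it in 0. HET replicate 2 lay above all WT arrays in 7 and below in 0, and HET replicate 3 above in 6 and below in 1. The share of all genes outside the WT range on these arrays was not counted, and the WT arrays varied least. These counts alone thus do not set the 10 genes apart from other genes. The SD over HET arrays was 0.57 for Nefl, 0.51 for Gap43, 0.35 for Ina, 0.33 for Stmn2 and 0.31 for Mapt. Of all genes, 0.577% had a HET SD at least as large as that of Nefl, 0.878% as large as that of Gap43, 3.31% as that of Ina, 4.41% as that of Stmn2 and 5.79% as that of Mapt. Nefm, Nefh, Dcx, Tubb3 and Map2 varied less over the same arrays, with HET SDs between 0.05 and 0.17.

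Without HET replicate 1, HET against WT gave 0.61 for Nefl (adjusted p = 0.21), 0.56 for Gap43 (adjusted p = 0.29) and 0.32 for Stmn2 (adjusted p = 0.23), all by limma. With all HET arrays they were 0.29, 0.27 and 0.14, and the rise follows from leaving out the lowest HET array of each gene. Over the arrays left out in turn, HET against WT ranged from 0.048 to 0.61 for Nefl and 0.080 to 0.56 for Gap43. For Stmn2 it ranged from -0.0059 to 0.32. The cause of the spread over the HET arrays was not tested.

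**Figure D3:**
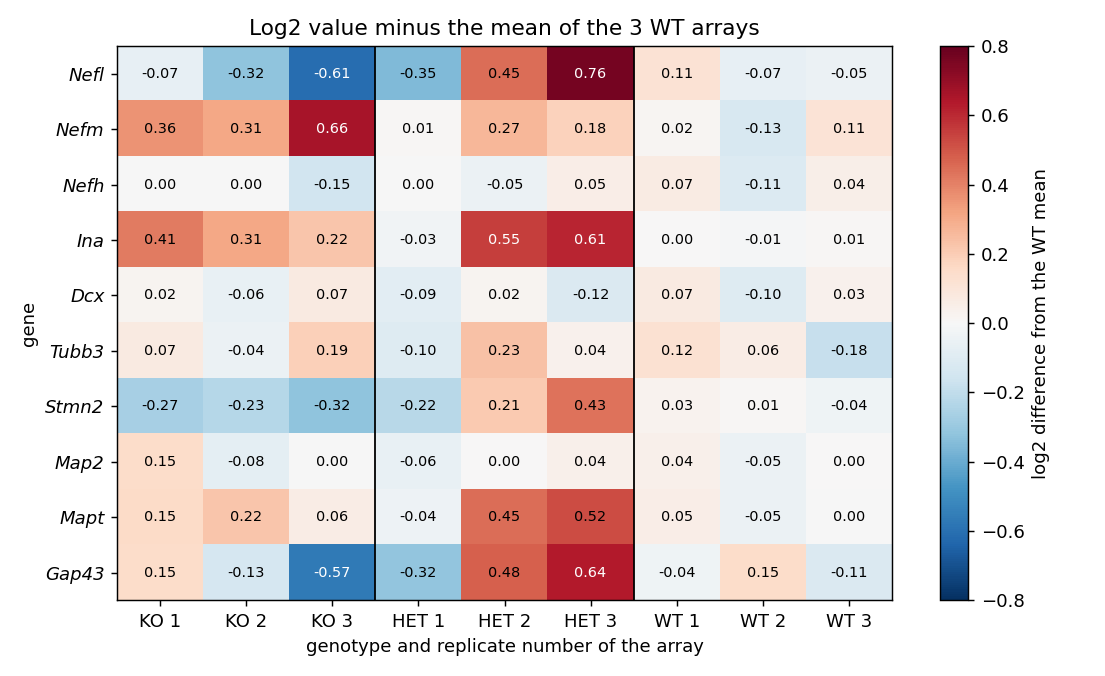
Log2 value of each gene (rows) on each array (columns, by genotype and replicate number) minus the mean of the 3 WT arrays; red is higher and blue is lower than that mean. HET replicates 2 and 3 are red in Nefl, Ina, Stmn2, Mapt and Gap43 and HET replicate 1 is not, while KO replicate 3 is lowest in Nefl (-0.61) and Gap43 (-0.57) and highest in Nefm (0.66).

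Promoters are shown for a gene whose KO and WT arrays did not overlap (Ina) and for one with flat values (Map2). The RefSeq promoter table (GRCm38.p6) matched 4 of the 10 genes, Ina, Dcx, Tubb3 and Map2. The sequences are the 250 bases before the start of each gene, and capitals mark E-boxes (CANNTG), GC boxes (GGGCGG) and TATA boxes (TATAAA), searched on both strands.
Ina, chr19:47014431-47014680, plus strand: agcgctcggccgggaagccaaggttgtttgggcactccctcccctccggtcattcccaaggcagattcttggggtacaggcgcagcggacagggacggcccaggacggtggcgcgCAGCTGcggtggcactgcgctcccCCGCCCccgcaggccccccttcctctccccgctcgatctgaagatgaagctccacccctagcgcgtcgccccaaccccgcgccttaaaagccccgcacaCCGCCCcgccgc
Map2, chr1:66175079-66175328, plus strand: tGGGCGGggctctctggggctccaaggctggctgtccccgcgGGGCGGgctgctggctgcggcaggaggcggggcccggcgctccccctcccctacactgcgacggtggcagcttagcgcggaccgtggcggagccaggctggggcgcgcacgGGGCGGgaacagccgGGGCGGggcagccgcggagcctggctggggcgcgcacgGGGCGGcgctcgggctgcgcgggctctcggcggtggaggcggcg
Ina held 1 E-box, the kind of site that proneural bHLH factors bind, and 2 GC boxes, and Map2 held 5 GC boxes and 0 E-boxes. Neither held a TATA box. Over 32851 promoter windows of the same length, 66.2% held an E-box, 32.7% a GC box and 12.4% a TATA box. G and C made up 70.8% of the Ina window and 81.2% of the Map2 window. These matches describe the letters only.

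The rest of the cytoskeleton was read from 9 lists of 85 genes, of which 82 were measured. None passed in KO against WT, and 5 had an unadjusted p under 0.05 upward and 1 downward (limma). Of all genes, 3.28% had such a p upward and 6.15% in either direction. The KO and WT arrays did not overlap in 21 of the 82, beside 9.98% of all genes. Of the 82, 59 lay above 0 with a median log2 difference of 0.06, beside 0.01 over all genes. In HET against WT none passed, and 6 had an unadjusted p under 0.05 upward and 1 downward, beside 2.4% of all genes upward and 4.05% in either direction. In that comparison 64 of 82 lay above 0 with a median of 0.08, beside 51.5% of all genes above 0. The HET and WT arrays did not overlap in 6 of the 82, beside 6.85% of all genes. Without HET replicate 1, 63 of 82 lay above 0 with a median of 0.14 and 0 called, beside 47.8% of all genes above 0. In that setting 27 had an unadjusted p under 0.05 upward and 3 downward. Over all 19938 genes the same setting gave 1444 upward and 836 downward, where 478 were upward with all arrays. The upward count thus rose over all genes too, and the upward share was larger among the 82. That difference in share was not tested.

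Collapsin response mediator proteins carry guidance signals to microtubules in growth cones. All 5 lay above 0 in both comparisons, with a median of 0.22 in KO against WT and 0.19 in HET against WT (0.34 without HET replicate 1), and none passed. Dpysl4 lay at 0.32 in KO against WT (SE 0.09, adjusted p = 0.38), Dpysl5 at 0.22 and Dpysl2 at 0.22. Their summed linear level was 3649 to 3709 in the KO arrays, 3121 to 4404 in the HET arrays and 3190 to 3246 in the WT arrays. Those KO arrays lay above the WT arrays, and the HET arrays spanned both.

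Axonal transport motors lay above 0 in 11 of 13 cases in KO against WT and in 11 of 13 in HET against WT, with medians of 0.12 and 0.12 and 0 called. The HET median was 0.22 without HET replicate 1, with 11 of 13 above 0. Kif21b, a kinesin of neurons, lay at 0.32 in KO (SE 0.11, adjusted p = 0.54), the dynein heavy chain Dync1h1 at 0.19 and Kif21a at -0.20. Of 14 other microtubule-associated proteins, 10 lay above 0 in KO and 13 in HET, with 0 called and 0 in KO and 1 in HET, Map9, at an unadjusted p under 0.05. Their HET median was 0.08, and 0.19 without HET replicate 1, when 13 of 14 lay above 0. In that setting 6 of the 14 had an unadjusted p under 0.05 upward, beside a smaller share, 1444 of 19938, of all genes. Map1a lay at -0.22 in KO, Map4 at 0.16 and Camsap1 at 0.13. The 8 measured tubulins had a median of 0.11 in KO and 0.05 in HET (0.076 without HET replicate 1), with Tubg1, the gamma-tubulin of nucleation sites, at 0.26, Tubb4a at 0.19 and Tuba4a at 0.16 in KO, and 0 had an unadjusted p under 0.05.

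The stathmins related to Stmn2 lay near or above 0. Stmn4 lay at 0.19 (SE 0.17), Stmn3 at 0.03 (SE 0.10) and Stmn1, the stathmin of dividing cells, at -0.01 (SE 0.10) in KO against WT; that they differ from Stmn2 was not tested. Other intermediate filaments had a median of 0.04 in KO, with Gfap, of astrocytes, at -0.31 (SE 0.11, adjusted p = 0.61), the nuclear lamin Lmnb1 at 0.22 (SE 0.09, adjusted p = 0.77) and vimentin (Vim) at 0.17. The list of growth cone membrane proteins, which also holds actin-binding proteins such as Fscn1 and Cap2, had a median of 0.02. The adhesion molecule Nrcam lay at 0.21 (SE 0.08, adjusted p = 0.74 by limma), Fscn1, which bundles actin, at 0.27 and Cap2 at -0.26.

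The list of kinases that phosphorylate tau or neurofilaments also holds Cdk5r1, Cdk5r2 and Mapk8ip1, which are partners of such kinases. Of its 12 genes, 9 lay above 0 in KO, with a median of 0.09 and 0 called. The Src-family kinase Fyn lay at 0.22 (SE 0.08, adjusted p = 0.68), Cdk5 at 0.28 and Mark4 at 0.18. Linkers of filaments to membrane and actin had a median of 0.03 in KO over 7 measured genes, with the ankyrin Ank3 at 0.23, the spectrin Sptan1 at 0.12 and Plec at -0.10, and 0 had an unadjusted p under 0.05. None of the 82 genes passed in any of the 3 comparisons.

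**Figure D4:**
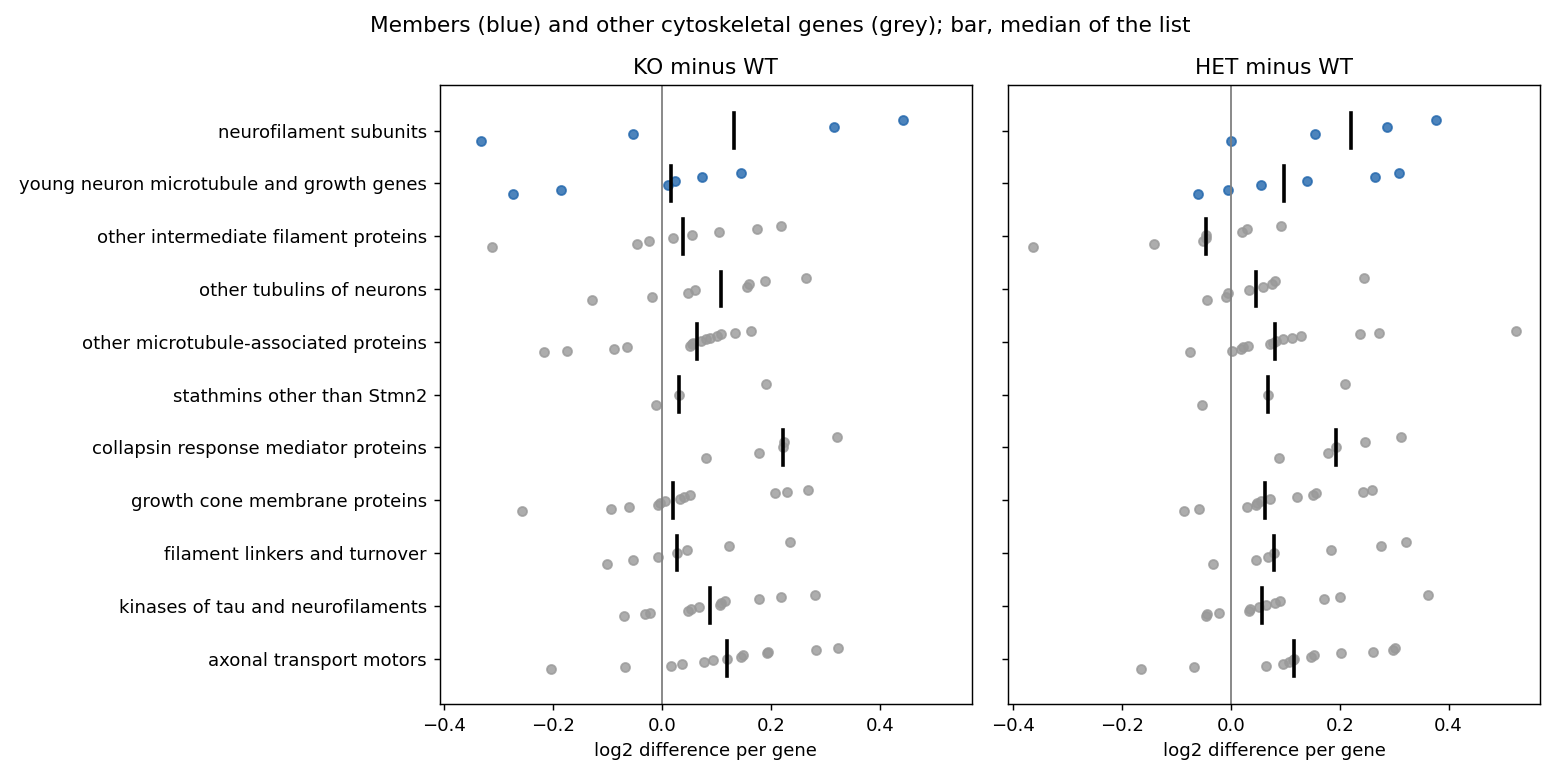
Log2 difference of each measured gene (points) in 11 lists for KO minus WT and HET minus WT; blue points are the 10 genes described here, grey points other cytoskeletal genes, and black bars list medians. The neurofilament subunits spread from -0.33 to 0.44 in KO minus WT, and all 5 collapsin response mediator proteins lie above 0 in both panels.

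Genes whose profile over the 9 arrays was most like a mean profile of the members were sought among genes whose mean was above the median of all genes. Each mean joins genes that differed in opposite directions in KO against WT, such as Nefm (0.44) and Nefl (-0.33). The genes found thus need not resemble any single member. For the mean of the 4 neurofilament subunits the nearest genes were Ubl5, a ubiquitin-like protein, the collapsin response mediator Crmp1 and Chmp2b, an endosomal sorting protein, with root mean square differences of 0.044, 0.047 and 0.049 log2 units. For the mean of the 6 other genes they were Ankmy2, the corepressor Tle5 and the zinc transporter Slc30a9, at 0.034, 0.036 and 0.042. In all 6, HET replicates 2 and 3 were the highest of the 9 arrays, which follows from the choice, since both mean profiles are highest there.

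Markers of other cells were read on the same arrays. Young neuron markers outside the 10 genes had a summed linear level of 12339 to 13305 in the KO arrays, 11994 to 14095 in the HET arrays and 12241 to 12582 in the WT arrays, and 0 of 28 passed. Their median was 0.03 in KO against WT, with the cortical regulator Tbr1 at -0.66 (SE 0.13, adjusted p = 0.077), Gad1, which makes GABA, at 0.24 (SE 0.09, adjusted p = 0.65) and Neurod6 at 0.28. Neurod6 reached at most 4.14, under the lower quartile of every array. Radial glia genes had a median of -0.08 in KO against WT, with 10 of 15 below 0 and 5 above it (highest 0.24), 0 called and 4 at an unadjusted p under 0.05 downward, among them Prom1 at -0.57 (SE 0.16, adjusted p = 0.37), Lhx2 at -0.42 and Ptprz1 at -0.30. Over all genes, 6.15% had such a p in either direction.

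Astrocyte genes were called in KO, where 0.451% of all genes were called and 52.6% of all genes lay above 0. Of 10, 6 lay below 0 and 4 above it (highest 0.21) in KO against WT, and 3 fell and 0 rose, namely Apoe, a lipid carrier (-0.86, SE 0.11, adjusted p = 0.0090), Clu, a secreted chaperone (-1.05, SE 0.14, adjusted p = 0.012) and Aqp4, a water channel (-1.02, SE 0.17, adjusted p = 0.033). Their list had a summed linear level of 1937 to 2038 in the KO arrays, 2614 to 3546 in the HET arrays and 2717 to 3286 in the WT arrays. Ependymal genes lay lower in 9 of 9 cases with 0 called, among them Enkur at -1.18 (SE 0.22, adjusted p = 0.054), Rsph4a at -0.96 and Ak7 at -0.53, and had sums of 340 to 417 in KO, 473 to 576 in HET and 543 to 575 in WT. An unadjusted p under 0.05 downward in KO against WT was found for 6 of 10 astrocyte and 6 of 9 ependymal genes (limma). Over all genes, 6.15% had an unadjusted p under 0.05 in either direction. The part of astrocytes and ependymal cells in the values of the 10 genes was not tested.

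Other lineages had 1 call between KO and WT in 6 lists, Ogn of the meninges (-1.37, SE 0.19, adjusted p = 0.012), beside 0.451% of all genes called. Oligodendrocyte lineage genes had a median of -0.0040 (Cnp at -0.43, Pdgfra at 0.27, Olig1 at 0.16), choroid plexus -0.02 (Calml4 at 0.19, Otx2 at 0.26, Kl at -0.13) and microglia 0.04 (Laptm5 at 0.18, Tmem119 at 0.09, P2ry12 at 0.07). Endothelial and pericyte genes had -0.02 (Slco1a4 at -0.27, Pdgfrb at -0.29, Pecam1 at 0.28), red blood cells -0.04 (Alas2 at -0.19, Hbb-y at -0.09, Epb42 at -0.04) and meninges and fibroblasts -0.09 (Lum at -0.18, Col1a2 at -0.15). Hopx aside, markers below the lower quartile of every array numbered 3 of 28 for young neurons, 1 of 8 for choroid plexus, 1 of 9 for endothelial cells and pericytes, 1 of 5 for red blood cells and 2 of 7 for meninges. Neurod6, Slco1a4, Epb42 and Lum were among them, and whether their values exceed background was not tested.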

How the data were processed

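RNA of 9 ventricular zone samples was measured on Affymetrix Mouse Gene ST 1.0 arrays, with 3 arrays per genotype as the titles give it. The deposited table holds log2 values of 28940 probe sets, made by the authors with RMA, affy and limma per the submitters' processing notes, with no versions or order. No genome build is named there. Probe sets were named from the platform annotation (21789 with 1 symbol, 1621 with several, 5530 without). The brightest 1-symbol probe set stood for each of 19938 genes, with no filter and no further normalization. RMA draws arrays to 1 distribution, so a shift of most genes would not show.

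All 9 arrays entered 1 limma fit (R 4.3.3, limma 3.58.1, lmFit and eBayes, two-sided), and p-values were adjusted over all genes by Benjamini-Hochberg. The fit was tested on simulated data. Those data gave each gene 1 spread in all genotypes, so they do not cover the unequal spread of these arrays. The members, lists, tests and alternatives were chosen with earlier results of these data known. Named were the 10 members, Prdm16, up to 3 genes per list that ranked first by unadjusted p between KO and WT, and the 3 genes nearest each of 2 mean profiles; Map9 and Hopx were named after their values were seen. Alternatives were the replicate block, only the arrays compared, trend and robust eBayes, array weights, a filter on dim genes, the mean of probe sets, quantile normalization, median centring and leaving out arrays. The number of arrays limits the precision.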

Additional observations from a re-analysis of the deposited data

How the results depend on the processing

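The count of the 10 genes that passed was 0 in KO against WT and in HET against WT under all 18 alternatives, and in KO against HET it was 0 to 1 over the arrays left out in turn and 0 otherwise. Over all genes, 90 passed in KO against WT with the full set of arrays, 23 to 77 with 1 array left out, 33 with only the KO and WT arrays, 151 with array weights and 50 when HET replicate 1 and KO replicate 2 were both omitted, an alternative added after seeing the data. For KO against HET the 41 calls became 12 to 75 with 1 array left out, 8 with only those arrays, 21 with median centring and 19 with the replicate block, and HET against WT stayed at 0. Replicate numbers do not pair the arrays: deviations of same-numbered arrays correlated between -0.34 and 0.06, and 0 of 9 arrays correlated best with their own number in both other genotypes. With the replicate block, KO against WT had 72 calls and 0 among the 10 genes.

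Of the values of single genes under these alternatives, 515 kept their direction and side of the threshold, 1 (Stmn2) passed, and 21 changed sign, all between -0.061 and 0.056. With 1 array left out, KO against WT ranged from -0.041 to 0.047 for Dcx, -0.017 to 0.14 for Tubb3, -0.039 to 0.073 for Map2 and -0.35 to 0.0072 for Gap43. HET against WT ranged from -0.054 to 0.034 for Nefh, -0.036 to 0.13 for Tubb3, -0.0059 to 0.32 for Stmn2 and -0.029 to 0.021 for Map2. KO against HET ranged from -0.26 to 0.056 for Ina, -0.061 to 0.11 for Tubb3 and -0.033 to 0.079 for Map2. HET against WT of Map2 was 0.0054 with array weights, 0.0083 with median centring and 0.021 with HET replicate 1 and KO replicate 2 omitted, where KO against HET of Tubb3 was -0.0019. Nefh has no value where dim genes were left out. List values and the Nefm minus Nefl value without HET replicate 1 were also added after seeing the data. The cause of these differences was not tested.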
